A study of Mus musculus with 13 samples.

Results

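Mast cell and basophil genes were followed in blood-forming stem and progenitor cells (HSPCs) of mice with 4 genotypes, as 9 genes (Cpa3, Mcpt8, Prss34, Tpsb2, Ms4a2, Fcer1a, Il1rl1, Hdc and Cyp11a1) chosen by name from 55421 genes with a read count. All 9 were found in the tables. The bulk RNA-seq libraries came from bone marrow, and their labels give 2 libraries of wild type, 2 of Setd2 knockout, 3 of Srsf2 mutated and 3 with both changes (called double mutant here). Setd2 encodes the enzyme that places trimethyl marks on lysine 36 of histone H3 along transcribed genes, and Srsf2 encodes a splicing factor that is recurrently mutated in myelodysplastic syndrome. Strain, age, sex, sort and the origin of replicates in separate mice are not given for these libraries in the sources used here. The p-values therefore measure the spread between these libraries, which may be technical. The labels of 3 single-cell samples, which were not analysed here, describe a sort for c-Kit without lineage markers, from a transplant of bone marrow in which Mx1-Cre, a recombinase induced by pIpC, was used.

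Mast cells and basophils are granulocytic effector cells of allergy that carry the high-affinity IgE receptor on their surface. Cross-linking of that receptor by IgE and antigen releases histamine, proteases and lipid mediators from their granules. In bone marrow both arise from progenitors that depend on GATA2, with high CEBPA favoring basophils and MITF favoring mast cells. Mouse basophils are known for the proteases Mcpt8 and Prss34, and mature connective tissue mast cells for tryptases, chymases and carboxypeptidase A3.

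Total counts ran from 32117387 to 50445434 per library, and expression is given as CPM, the read count relative to the library total after TMM scaling. Stem and progenitor markers were detected in every library (0 of 10 genes at 0), with Kit at 422 ± 33.7 CPM in wild type (SD, n = 2) and 163 ± 4.04 in the double mutant (SD, n = 3). Setd2 counts over the whole gene were 145 to 159 CPM in wild type, 213 to 231 in the libraries labelled Setd2 knockout, 157 to 221 in Srsf2 mutated and 130 to 131 in the double mutant. Such counts do not check a deletion of part of the gene, so the groups carry the names of their labels throughout. The X-inactivation RNA Xist stood at 472 to 499 CPM in wild type and at 7.94 or less in the other 3 groups, and the Y-linked Ddx3y at 0 in wild type and Setd2 knockout and at 104 to 128 in the others. Sex chromosome state and genotype cannot be told apart in the comparisons with wild type, in that of double mutant with Setd2 knockout, or in the interaction below. In bulk samples fewer cells of a type and less RNA per cell cannot be told apart, which holds for each value below.

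Both proteases of basophils were highest with the Srsf2 mutation alone. Prss34, a tryptase-like serine protease of basophils (mast cell protease 11), lies on chromosome 17 (GRCm38, chr17:25298394-25300165). Its level was 67.5 and 92.6 CPM in wild type, 59.8 and 66.7 in the Setd2 knockout, 499.5, 455.7 and 554 in Srsf2 mutated, and 165, 171 and 174 in the double mutant. All 3 Srsf2 mutated libraries were above all double mutant libraries, and these above the other 4 libraries. Mcpt8, the basophil protease used as a lineage marker in mice (chr14:56082166-56085273), read 51.1 and 49.6 CPM in wild type and 46.9 and 48.7 in the Setd2 knockout. It read 211.5, 182 and 243 CPM in Srsf2 mutated and 79.8, 77.2 and 84.1 in the double mutant. The 2 genes kept the same order of group means.

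Cpa3, the granule carboxypeptidase of mast cells that basophils and their progenitors also express (chr3:20215620-20242181), overlapped between the 3 groups other than double mutant. It read 71.3 and 58.1 CPM in wild type, 68.9 and 64.5 in the Setd2 knockout, 76, 64.9 and 90.2 in Srsf2 mutated, and 48.1, 50.9 and 49.1 in the double mutant. The double mutant libraries were below all others. Tpsb2, a tryptase of mature mast cells (chr17:25366305-25369098), was close to the limit of detection outside the double mutant. Its counts were 0 and 4 in wild type, 10 and 5 in the Setd2 knockout, 7, 0 and 16 in Srsf2 mutated, and 59, 167 and 113 in the double mutant. The double mutant libraries thus held 1.92, 3.65 and 2.34 CPM, and the others at most 0.405. The near-identical tryptase gene Tpsab1 had 2 counts in all, and how the authors' counting split reads between the 2 genes is not given in the sources used here. All 9 genes passed the filter on low counts, 8 of them with 10 or more counts in every library. Tpsb2 reached that count throughout only in the double mutant, so its difference from that group is partly set by the filter.

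The receptor genes split into 3 patterns. Ms4a2, the beta subunit of the IgE receptor (chr19:11615523-11623719), read 20.8 and 20.8 CPM in wild type, 31.9 and 27.1 in the Setd2 knockout, 51.1, 49.7 and 54.6 in Srsf2 mutated, and 21.5, 22.3 and 21.3 in the double mutant. Wild type and double mutant were nearly level, at means a factor of 1.04 apart. Fcer1a, the IgE-binding alpha subunit (chr1:173221284-173227214), read 8.33 and 10.4 CPM in wild type, 13.7 and 12.9 in the Setd2 knockout, 40.4, 34.7 and 50 in Srsf2 mutated, and 23.3, 23.3 and 22.3 in the double mutant. No groups overlapped in Fcer1a, and double mutant was the second highest. Il1rl1 encodes ST2, the receptor for the alarmin IL-33 (chr1:40429570-40465415). It was highest in the Setd2 knockout, at 53 and 52.4 CPM, against 23.6 and 21.7 in wild type, 16.9, 16.4 and 16.6 in Srsf2 mutated, and 32.4, 32.1 and 37.1 in the double mutant. Both groups with Setd2 knockout were above both groups without it.

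The 2 enzymes behaved unlike each other. Hdc, histidine decarboxylase, makes histamine and is also active in immature cells of other granulocyte lineages (chr2:126593667-126619299). It read 246.7 and 257 CPM in wild type, 93.4 and 101.5 in the Setd2 knockout, 280, 276 and 271 in Srsf2 mutated, and 387.5, 389.9 and 385 in the double mutant. Setd2 knockout was the lowest group and double mutant the highest. Cyp11a1, the side-chain cleavage enzyme that starts steroid synthesis from cholesterol and is expressed in mast cells and basophils (chr9:58006411-58027023), read 4.19 and 4.7 CPM in wild type and 3.35 and 3.28 in the Setd2 knockout. It read 73.7, 72.2 and 67.8 CPM in Srsf2 mutated and 28.9, 28.2 and 27.4 in the double mutant. The group with Srsf2 mutated alone was above all others.

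**Figure D1:**
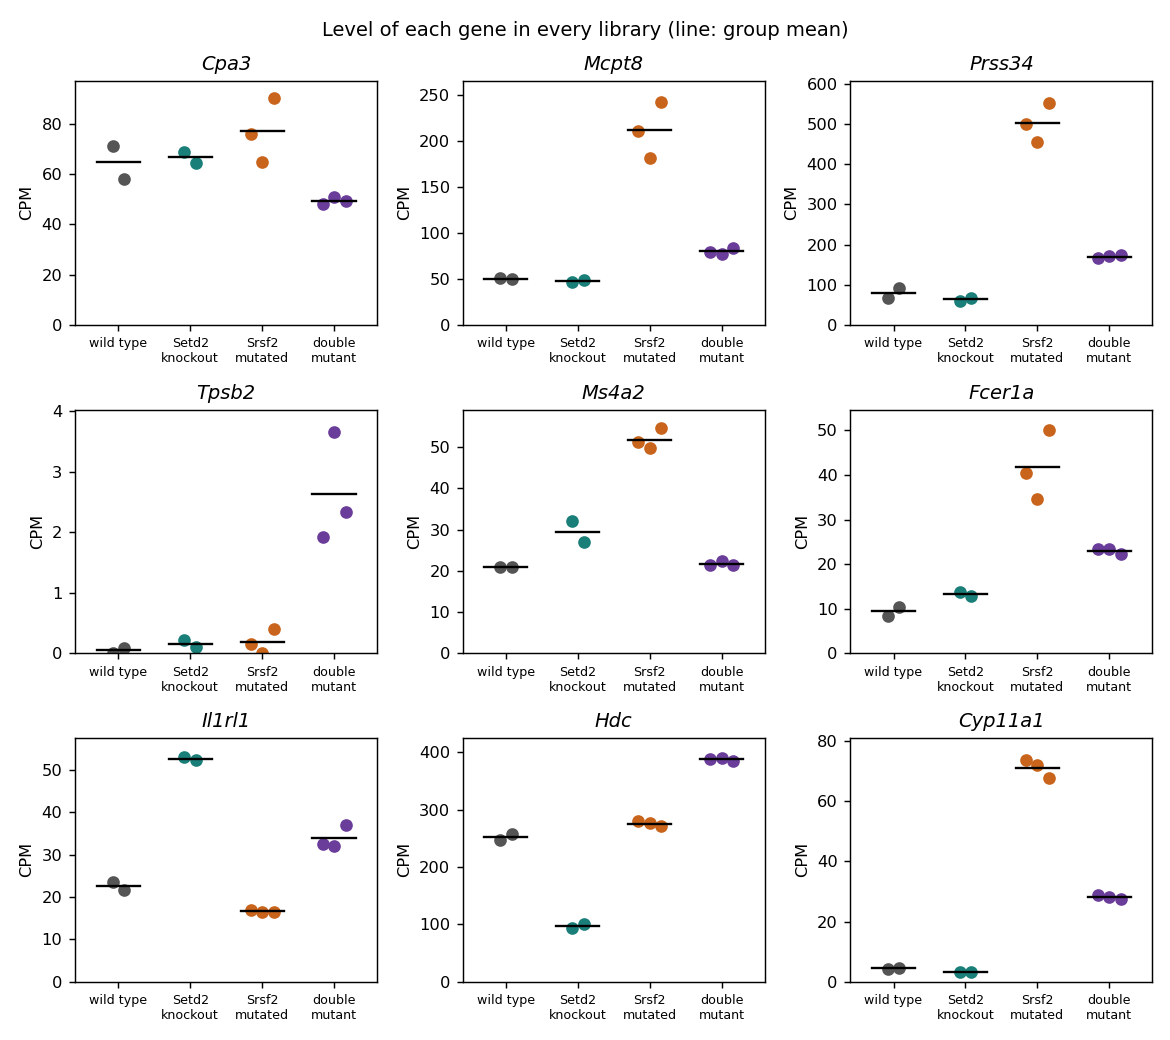
CPM of each of the 9 genes in every library (points) by genotype, with the group mean as a line and each y axis from 0. Prss34, Mcpt8, Fcer1a, Ms4a2 and Cyp11a1 are highest in the 3 Srsf2 mutated libraries, Hdc and Tpsb2 in the 3 double mutant libraries, and Il1rl1 in the 2 Setd2 knockout libraries.

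Per length, on the scale of CPM per kb of the listed gene length, the order of levels in wild type was Prss34 (65.6), Mcpt8 (50.4), Cpa3 (42.6), Hdc (39.4), Fcer1a (9.39), Ms4a2 (7.41), Il1rl1 (3.28), Cyp11a1 (0.925) and Tpsb2 (0.0295). In Srsf2 mutated, Prss34 stood at 412 and Mcpt8 at 212.5 CPM per kb, ahead of Cpa3 (50.8), Hdc (43.2) and Fcer1a (41.8). In Setd2 knockout the same scale gave Hdc 15.3 and Fcer1a 13.4, and in the double mutant Hdc (60.65) was above Cpa3 (32.6). Fcer1a and Ms4a2 stood below Prss34, Mcpt8 and Cpa3 in each group on this scale. In neighboring groups of each gene's order, the library values overlapped between wild type and Setd2 knockout and between Setd2 knockout and Srsf2 mutated for Cpa3, and between Setd2 knockout and Srsf2 mutated for Tpsb2. The other neighboring groups did not overlap, but groups of 2 or 3 libraries can also separate by chance. Mcpt8 and Tpsb2 had separate ranges in Setd2 knockout and wild type without passing the test (edgeR adjusted p = 0.617 and 0.308). The same held for Hdc in Srsf2 mutated and wild type (0.0972). How often all tested genes separate in this way was not computed, so the ranges only describe these libraries.

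The sequences just before the start sites are shown for 7 of the genes because the 5 genes that rose with the Srsf2 mutation (Prss34, Mcpt8, Ms4a2, Fcer1a and Cyp11a1), the gene highest in the Setd2 knockout (Il1rl1) and the steadier Cpa3 can be compared there. They are the 250 bases upstream of the RefSeq start (GRCm38.p6), 5′ to 3′ on the gene's strand, with capitals for words of the GATA motif (AGATAA or AGATAG or TGATAA or TGATAG, on either strand). RefSeq held promoters for 8 of the 9 genes, 10 promoters in all, since Il1rl1 and Cyp11a1 have 2 each. Both are shown for Cyp11a1, and the upstream one for Il1rl1.
Prss34 (chr17:25298144-25298393, plus strand): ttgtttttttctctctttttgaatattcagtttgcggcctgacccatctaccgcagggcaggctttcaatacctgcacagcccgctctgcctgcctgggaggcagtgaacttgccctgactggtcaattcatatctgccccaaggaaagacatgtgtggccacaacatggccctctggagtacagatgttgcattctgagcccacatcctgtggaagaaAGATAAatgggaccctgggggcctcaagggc
Mcpt8 (chr14:56085198-56085447, minus strand): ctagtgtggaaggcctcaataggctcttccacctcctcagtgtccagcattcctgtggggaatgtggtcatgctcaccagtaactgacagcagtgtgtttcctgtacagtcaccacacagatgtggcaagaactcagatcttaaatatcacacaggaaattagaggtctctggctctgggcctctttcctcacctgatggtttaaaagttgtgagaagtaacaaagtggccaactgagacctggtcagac
Ms4a2 (chr19:11623720-11623969, minus strand): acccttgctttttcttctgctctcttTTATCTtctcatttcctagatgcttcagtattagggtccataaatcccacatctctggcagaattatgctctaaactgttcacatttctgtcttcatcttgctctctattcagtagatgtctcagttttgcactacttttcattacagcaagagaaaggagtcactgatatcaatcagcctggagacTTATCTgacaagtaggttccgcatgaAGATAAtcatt
Fcer1a (chr1:173227230-173227479, minus strand): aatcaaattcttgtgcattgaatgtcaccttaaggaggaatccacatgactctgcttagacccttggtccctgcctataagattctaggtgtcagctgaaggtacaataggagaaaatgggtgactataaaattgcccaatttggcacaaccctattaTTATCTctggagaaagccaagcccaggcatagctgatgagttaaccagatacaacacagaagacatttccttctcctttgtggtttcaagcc
Cyp11a1, upstream (chr9:57997774-57998023, plus strand): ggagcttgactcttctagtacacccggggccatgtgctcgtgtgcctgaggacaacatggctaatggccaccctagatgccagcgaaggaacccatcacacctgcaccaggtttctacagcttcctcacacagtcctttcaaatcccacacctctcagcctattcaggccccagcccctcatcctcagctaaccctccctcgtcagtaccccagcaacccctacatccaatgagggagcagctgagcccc
Cyp11a1, downstream (chr9:58014702-58014951, plus strand): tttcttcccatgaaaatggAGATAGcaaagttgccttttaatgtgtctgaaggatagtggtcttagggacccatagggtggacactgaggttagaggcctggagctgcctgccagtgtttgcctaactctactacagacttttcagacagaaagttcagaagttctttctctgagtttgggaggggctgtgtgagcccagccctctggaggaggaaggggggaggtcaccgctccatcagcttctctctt
Il1rl1 (chr1:40429320-40429569, plus strand): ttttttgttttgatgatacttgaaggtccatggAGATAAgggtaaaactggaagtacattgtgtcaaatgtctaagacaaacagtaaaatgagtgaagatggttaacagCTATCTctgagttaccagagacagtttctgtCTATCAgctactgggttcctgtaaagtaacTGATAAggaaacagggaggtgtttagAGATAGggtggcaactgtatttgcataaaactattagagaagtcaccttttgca
Cpa3 (chr3:20242182-20242431, minus strand): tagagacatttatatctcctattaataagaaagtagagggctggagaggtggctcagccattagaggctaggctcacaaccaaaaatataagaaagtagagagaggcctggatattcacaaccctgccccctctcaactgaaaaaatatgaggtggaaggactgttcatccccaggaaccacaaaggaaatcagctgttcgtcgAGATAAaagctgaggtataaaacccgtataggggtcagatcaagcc

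GATA words stood in 8 of the 10 promoters, those of 7 genes, while 26.5% of the 32851 RefSeq promoters of this length held at least 1. The upstream Il1rl1 promoter held 5 such words and that of Ms4a2 held 3; 6.4% of all promoters held 2 or more. The words nearest the start were 31 to 26 bases upstream in Prss34, 46 to 41 in Cpa3, 54 to 49 in Il1rl1, and 11 to 6 in Ms4a2. In all promoters 5.96% had a GATA word within the last 60 bases, a window set after these positions were seen. Mcpt8, whose levels ran beside those of Prss34, held none in its window, nor did the upstream promoter of Cyp11a1. Words of the RUNX motif (TGTGGT or TGCGGT, on either strand) were in 5 of the 10 promoters against 18.6% of all, and E-box words that MITF binds (CACGTG or CATGTG, on either strand) in 3 against 17.6%. Word matches are descriptions of the sequence, not binding sites.

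The first comparison asked what loss of Setd2 does with normal Srsf2. Against wild type 6 of the 9 genes differed, and they had no common direction: Il1rl1, Ms4a2 and Fcer1a rose, and Hdc, Cyp11a1 and Prss34 fell. Of all 19289 genes tested, 18.7% rose and 19.9% fell at an adjusted p under 0.05 (edgeR quasi-likelihood test, Benjamini-Hochberg over all tested genes). The median log2 change of the 9 genes was 0.04, and that of all tested genes also 0.04. Hdc fell 2.585-fold, a log2 change of -1.37 ± 0.07 (SE; adjusted p = 1.68e-09), from 252 ± 7.51 to 97.5 ± 5.72 CPM (SD, n = 2 and 2). Il1rl1 rose 2.33-fold, by 1.221 ± 0.10 on that scale (SE; adjusted p = 1.65e-07), from 22.6 ± 1.33 to 52.7 ± 0.396 CPM.

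Smaller changes were seen in the IgE receptor. Ms4a2 was 1.42-fold higher in the Setd2 knockout (log2 0.50 ± 0.10, SE; edgeR adjusted p = 0.000994), and Fcer1a 1.42-fold (0.51 ± 0.15; adjusted p = 0.0168). Cyp11a1 fell by 0.42 ± 0.12 (adjusted p = 0.0104) and Prss34 by 0.34 ± 0.12 (adjusted p = 0.038). Mcpt8 (-0.08 ± 0.11; adjusted p = 0.617), Cpa3 (0.04 ± 0.13; adjusted p = 0.816) and Tpsb2 (1.71 ± 1.27; adjusted p = 0.308) did not pass the test. Without Setd2 knockout replicate 1 only 3 of the 9 genes were called and the calls of Prss34 (adjusted p = 0.264), Fcer1a (0.0812) and Cyp11a1 (0.0663) ended. Prss34 was the least stable, at -0.09 without wild type replicate 2 (adjusted p = 0.574) and -0.25 under upper-quartile scaling (adjusted p = 0.126); the calls also ended for Cyp11a1 without replicate 2 of wild type (0.095) or of Setd2 knockout (0.0739) and for Fcer1a without wild type replicate 1 (0.17).

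With normal Setd2, the mutation of Srsf2 went with higher levels of both basophil proteases, Fcer1a, Ms4a2 and Cyp11a1. Against wild type, 5 of the 9 genes rose, 1 fell and 3 did not pass, beside 28.5% higher and 27.8% lower among all tested genes (edgeR). The median log2 change was 1.87 over the 9 genes and 0.08 over all tested genes. That median is the value of Tpsb2, which did not pass and had 4 counts over wild type and 23 over Srsf2 mutated. The filter passed Tpsb2 through the double mutant, so the median is a weak summary here. Cyp11a1 was 16.02-fold higher, Prss34 6.28-fold, Fcer1a 4.44-fold, Mcpt8 4.21-fold and Ms4a2 2.485-fold. For Prss34 the change was 2.65 ± 0.12 on the log2 scale (SE; adjusted p = 5.74e-11), from 80.1 ± 17.8 to 503 ± 49.3 CPM (SD, n = 2 and 3). For Mcpt8 it was 2.08 ± 0.10 (adjusted p = 1.69e-10), and for Cyp11a1 4.00 ± 0.10 (adjusted p = 7.21e-14).

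The alpha and beta subunits of the IgE receptor rose: Fcer1a by 2.15 ± 0.15 (SE; edgeR adjusted p = 5.92e-09) and Ms4a2 by 1.31 ± 0.09 (adjusted p = 1.1e-08). Il1rl1 fell by 0.44 ± 0.09 (adjusted p = 0.000636), so the receptor for IL-33 went the other way. Cpa3 was 1.19-fold higher (0.25 ± 0.12; adjusted p = 0.0798) and Hdc 1.09-fold (0.13 ± 0.06; adjusted p = 0.0972), and Tpsb2 read 1.87 ± 1.18 (adjusted p = 0.19). These 3 did not pass here, but Cpa3 was called without Srsf2 mutated replicate 2 (0.36; adjusted p = 0.00737) or wild type replicate 1 (0.40; 0.0321) and Hdc without Srsf2 mutated replicate 3 (0.14; 0.0432). DESeq2 and upper-quartile scaling also called both, and Tpsb2 was called without Srsf2 mutated replicate 2, which had 0 counts (2.50; 0.03).

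**Figure D2:**
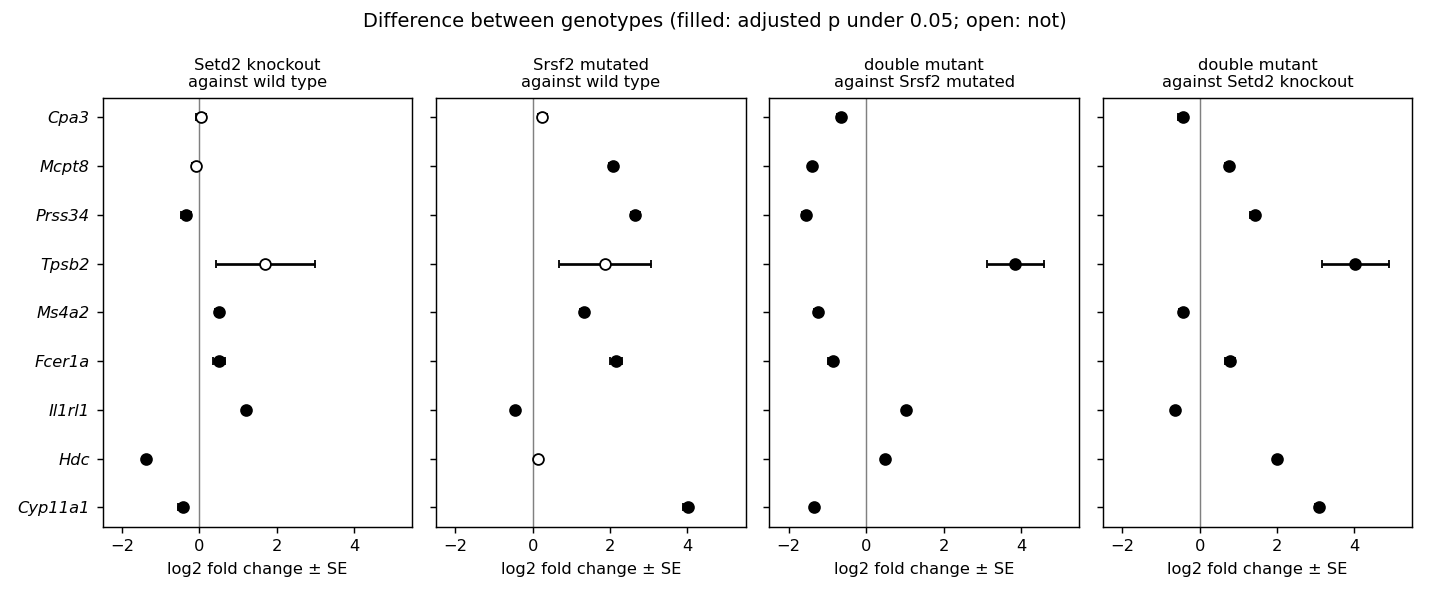
Log2 fold change (x axis) of each gene in 4 comparisons of genotypes, with the SE of the fit as bars, most of them shorter than the symbol. Filled symbols passed the test, which were 6, 6, 9 and 9 of the 9 genes from left to right, and open symbols did not. In the comparisons of the double mutant the filled symbols include Tpsb2, which the filter passed through that group.

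Setd2 loss was then compared in cells with mutated Srsf2. Here all 9 genes were called, but the filter passed Tpsb2 only through the double mutant, where it is high. Its difference is given as counts below. Prss34, Mcpt8, Cyp11a1, Ms4a2, Fcer1a and Cpa3 were lower with both changes than with the Srsf2 mutation alone. Il1rl1 and Hdc were higher, as were the counts of Tpsb2. Among all tested genes 15.9% were lower and 17.8% higher, with a median log2 change of 0.0049 against -0.86 over the 9 genes (edgeR). Prss34 fell 2.96-fold, a log2 change of -1.56 ± 0.10 (SE; adjusted p = 4.8e-09), to 170.1 ± 4.33 CPM (SD, n = 3). Mcpt8 fell by 1.40 ± 0.09 (adjusted p = 3.66e-09), Cyp11a1 by 1.34 ± 0.08 (adjusted p = 1.16e-09) and Ms4a2 by 1.25 ± 0.08 (adjusted p = 6.305e-09). Fcer1a fell by 0.86 ± 0.12 (adjusted p = 3.12e-05) and Cpa3 by 0.64 ± 0.10 (adjusted p = 0.000166).

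The mast cell tryptase, the IL-33 receptor and the histamine enzyme rose in this pair. Il1rl1 rose 2.04-fold (1.03 ± 0.08, SE; edgeR adjusted p = 6.42e-08) and Hdc 1.405-fold (0.49 ± 0.06; adjusted p = 5.265e-06). Tpsb2 went from 23 counts over 3 libraries to 339, given without a test because the filter passed the gene through the double mutant. Leaving Tpsb2 aside, the calls held under each of the alternative settings and with each of the 10 libraries left out in turn.

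The authors' deposited table of the same pair listed 4 of the 9 genes with an adjusted p under 0.05 (Il1rl1, Prss34, Ms4a2 and Cyp11a1). In the authors' deposited table Mcpt8 changed by -1.476 with a standard error of 0.5838 (adjusted p = 0.116), and Hdc by 0.417 with 0.33 (adjusted p = 0.627). Standard errors of the 8 genes other than Tpsb2 ran from 0.19 to 0.5838 in that table, and from 0.0644 to 0.166 in the authors' deposited tables of the 2 comparisons with wild type. The mean normalised count that the authors' deposited table lists for Prss34 in this pair was 220079.6, while the highest count of Prss34 in the 6 libraries listed was 22583. For Mcpt8 the authors' deposited table listed 33573.9, against a highest count of 9603. Which libraries entered that fit is not given in the sources used here. The authors' deposited tables called 6 genes in the Setd2 knockout against wild type and 8 in Srsf2 mutated against wild type, where Cpa3 (adjusted p = 0.0453) and Hdc (0.0322) passed.

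Against Setd2 knockout, the double mutant was higher in Cyp11a1, Hdc, Prss34, Fcer1a and Mcpt8 and lower in Il1rl1, Ms4a2 and Cpa3. Tpsb2 was also higher, but the filter passed it through the double mutant. With it 9 of 9 were called, beside 26% higher and 25.8% lower among all tested genes. Cyp11a1 was 8.49-fold higher (3.09 ± 0.10, SE; edgeR adjusted p = 8.78e-13), Hdc 3.975-fold (1.99 ± 0.07; adjusted p = 1.21e-12) and Prss34 2.69-fold (1.43 ± 0.12; adjusted p = 3.89e-08). Ms4a2 fell by 0.44 ± 0.09 (adjusted p = 0.000684), although it was higher with the Srsf2 mutation at normal Setd2. Il1rl1 fell by 0.64 ± 0.09 (adjusted p = 1.41e-05). The comparisons share groups of libraries, so their values are set side by side and not correlated.

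Whether Setd2 loss acted differently in the 2 Srsf2 backgrounds was tested by the interaction, the log2 effect of Setd2 loss with mutated Srsf2 minus that with normal Srsf2. The test was passed by 7 of the 9 genes, 6 with a lower and 1 with a higher effect, beside 15.2% lower and 16.7% higher among all tested genes. Ms4a2 differed most among the lower ones, by -1.755 ± 0.130 (SE; edgeR adjusted p = 5.49e-08): Setd2 loss went with 1.42-fold more Ms4a2 at normal Srsf2 and 2.38-fold less at mutated Srsf2. Fcer1a differed by -1.37 ± 0.195 (adjusted p = 5.42e-05), Mcpt8 by -1.325 ± 0.14 (adjusted p = 2.16e-06), Prss34 by -1.224 ± 0.16 (adjusted p = 1.89e-05), Cyp11a1 by -0.92 ± 0.14 (adjusted p = 0.000111) and Cpa3 by -0.68 ± 0.17 (adjusted p = 0.00463). Hdc went the other way, by 1.86 ± 0.09 (adjusted p = 9.301e-10). Il1rl1 did not pass (-0.19 ± 0.13; adjusted p = 0.278), with rises of 1.221 and 1.03 in the 2 backgrounds, nor did Tpsb2 (2.15 ± 1.69; adjusted p = 0.365). Under upper-quartile scaling the share of higher calls among all genes moved from 52.4% to 37.6% here, and from 48.4% to 59.5% in the Setd2 knockout against wild type, while the 7 calls of these genes stood under each scaling.

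**Figure D3:**
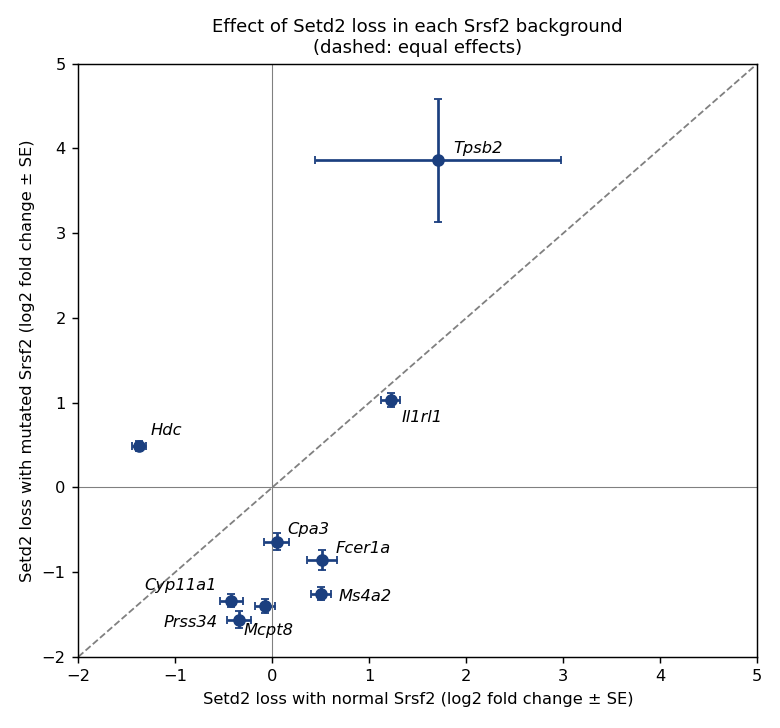
Log2 effect of Setd2 loss with normal Srsf2 (x axis) and with mutated Srsf2 (y axis) for the 9 genes, bars showing the SE and the dashed line equal effects. Il1rl1 lies near the line (1.221 and 1.03), Hdc far above it (-1.37 and 0.49), and the 6 genes with a lower effect at mutated Srsf2 below it.

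Other genes of the lineage were read from lists. Of 22 tested surface and cytokine genes of basophils and mast cells, 16 were higher and 3 lower in Srsf2 mutated than in wild type, beside 28.5% and 27.8% of all tested genes, with a median log2 change of 1.645. In double mutant against Srsf2 mutated 4 were higher and 12 lower, beside 17.8% and 15.9% of all. Cd200r3, an activating receptor of basophils and mast cells, read 0.929 CPM in wild type, 2.275 in the Setd2 knockout, 34.4 in Srsf2 mutated and 12.5 in the double mutant. Its interaction was -2.75 ± 0.20 (SE; edgeR adjusted p = 4.36e-08), the sign of those of Ms4a2 and Fcer1a. Lilrb4a, an inhibitory receptor of myeloid and mast cells, went from 3.72 CPM in wild type to 179.7 in Srsf2 mutated and 502 in the double mutant. In Setd2 knockout 5 of the 22 were higher and 10 lower than in wild type, beside 18.7% and 19.9% of all, and against Setd2 knockout the double mutant had 15 higher and 4 lower, beside 26% and 25.8%. Without Setd2 knockout replicate 1, 6 rather than 10 of these genes were lower than in wild type. Osm, the cytokine oncostatin M, read 30.5 ± 1.67 CPM in wild type and 446.6 ± 38.1 in Srsf2 mutated (SD, n = 2 and 3), and 27.1 and 331.8 on average in the groups with Setd2 knockout. The type 2 cytokine Il13, named after its values were seen, had 0 counts over the wild type libraries, 1 over Setd2 knockout, 70 over Srsf2 mutated and 88 over double mutant. In each wild type library 4 of the 25 genes of this list stood at 0. Such genes can pass the filter through the groups where they are high, so the counts and the median of this list may be partly set by it.

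The third subunit of the IgE receptor went the other way from the alpha and beta subunits with Setd2 loss. Fcer1g, the gamma chain that is shared with other Fc receptors of myeloid cells, fell by 1.02 ± 0.10 in the Setd2 knockout (SE; edgeR adjusted p = 1.12e-06), from 112 ± 7.21 to 55 ± 6.1 CPM (SD, n = 2 and 2), while Fcer1a and Ms4a2 rose. In double mutant against Srsf2 mutated it rose by 0.74 ± 0.08 (adjusted p = 2.14e-06), while both others fell. Of 20 genes of IgE receptor signaling, 0 rose and 16 fell in the Setd2 knockout against wild type (median -0.62), beside 18.7% and 19.9% of all tested genes. DESeq2 gave the same counts, and 1 gene, the kinase Fyn, was higher at an unadjusted p under 0.05. Upper-quartile scaling gave 1 higher and 15 lower, and the stricter filter and the fit of the compared groups alone also gave 1 higher. The same list had 8 higher and 8 lower in Srsf2 mutated against wild type (28.5% and 27.8% of all), and 7 and 5 in the double mutant against Srsf2 mutated (17.8% and 15.9% of all). The interaction had 13 higher and 2 lower (16.7% and 15.2% of all). Double mutant against Setd2 knockout had 14 higher and 0 lower (26% and 25.8% of all; 0 lower by DESeq2, and 1, Plcg1, at an unadjusted p under 0.05). That count of 0 became 1 under upper-quartile scaling, with only the groups compared, and without Setd2 knockout replicate 1, Srsf2 mutated replicate 1 or 3, or double mutant replicate 2. Lcp2, the adaptor SLP-76, fell by 0.79 ± 0.07 in the Setd2 knockout (adjusted p = 8.07e-07), and Rasgrp4, a Ras activator of mast cells, had an interaction of 2.32 ± 0.15 (adjusted p = 1.45e-08).

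Of 20 factors that direct or restrain the lineage, 3 were higher and 14 lower in Srsf2 mutated against wild type (median -0.40), beside 28.5% and 27.8% of all tested genes. In Setd2 knockout 6 were higher and 7 lower (median -0.01), beside 18.7% and 19.9%. Double mutant against Srsf2 mutated had 7 higher and 8 lower, beside 17.8% and 15.9%, and double mutant against Setd2 knockout 5 and 12, beside 26% and 25.8%. Gata2 was nearly level at 157.7, 169.6 and 167.5 CPM in wild type, Setd2 knockout and Srsf2 mutated, and at 102 in the double mutant, a fall by 0.72 ± 0.06 log2 units from Srsf2 mutated (SE; edgeR adjusted p = 5.31e-08). Cebpa fell in Srsf2 mutated by 1.23 ± 0.08 (adjusted p = 3.43e-09), from 347.5 to 148 CPM, although Mcpt8 and Prss34 rose in these libraries. Gata1 was highest in the 2 groups with Setd2 knockout (83.8 and 72.2 CPM), as was Il1rl1, against 44.8 in wild type and 29.1 in Srsf2 mutated. Mitf, at 6.996 to 9.696 CPM, differed in the double mutant against Srsf2 mutated (0.47 ± 0.15; adjusted p = 0.0257) and did not pass in the other comparisons. Hes1, a Notch target, rose with Srsf2 mutation from 1.09 to 21.25 CPM and stood at 7.14 in the double mutant. Bhlhe40, a basic helix-loop-helix factor, read 16.5 CPM in wild type, 8.13 with Setd2 knockout, 151 with the Srsf2 mutation and 204 with both.

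Counts of several other genes of mature mast cells were also highest in the double mutant. In the list of 11 other granule proteases and proteoglycan genes, 5 passed the filter, 1 of them, Mcpt4, through the double mutant. In double mutant against Srsf2 mutated 3 of the 5, Mcpt4 among them, were higher, beside 17.8% of all tested genes. The 1 lower gene, beside 15.9% of all, was Ctsg (-0.45). Summed over the 11 genes, the level was 2879.2 to 2902.7 CPM in wild type and 1838.2 to 1905.5 in the double mutant. It was as low in the Setd2 knockout (1859.9 to 1986.7) and Srsf2 mutated (1683.8 to 2027.5). The sum largely followed Ctsg, a gene of neutrophil precursors, at 1727.2 CPM on average in wild type and 694.5 in the double mutant. Setd2 knockout had 1043.8 CPM of Ctsg and Srsf2 mutated 951.9. Mcpt4, a connective tissue mast cell chymase, had 1 count in the 2 wild type libraries, 0 in the Setd2 knockout, 16 in Srsf2 mutated and 187 in the double mutant. Its mean was 1.54 ± 0.33 CPM in the double mutant (SD, n = 3) and at most 0.116 in the other groups, a difference given without a test because the filter passed the gene through the group where it is high. Cma1, another chymase, went from 0.557 ± 0.374 to 3.13 ± 0.963 CPM (SD, n = 3 and 3), a log2 change of 2.45 ± 0.46 from Srsf2 mutated (SE; edgeR adjusted p = 0.000606). The mast cell receptor genes Mrgprb1 and Mrgprb2 had 17 and 26 counts over the 3 double mutant libraries and 0 in wild type and Srsf2 mutated, which allows up to 0.0353 and 0.0225 CPM over those groups. Setd2 knockout had 2 counts of Mrgprb1 and 0 of Mrgprb2. Mcpt2 had 11 counts in the double mutant and 0 in the other groups, whereas Tpsab1 had 0 in the double mutant. Cma1, Mrgprb1, Mrgprb2 and Mcpt2 are named here after their values were seen.

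**Figure D4:**
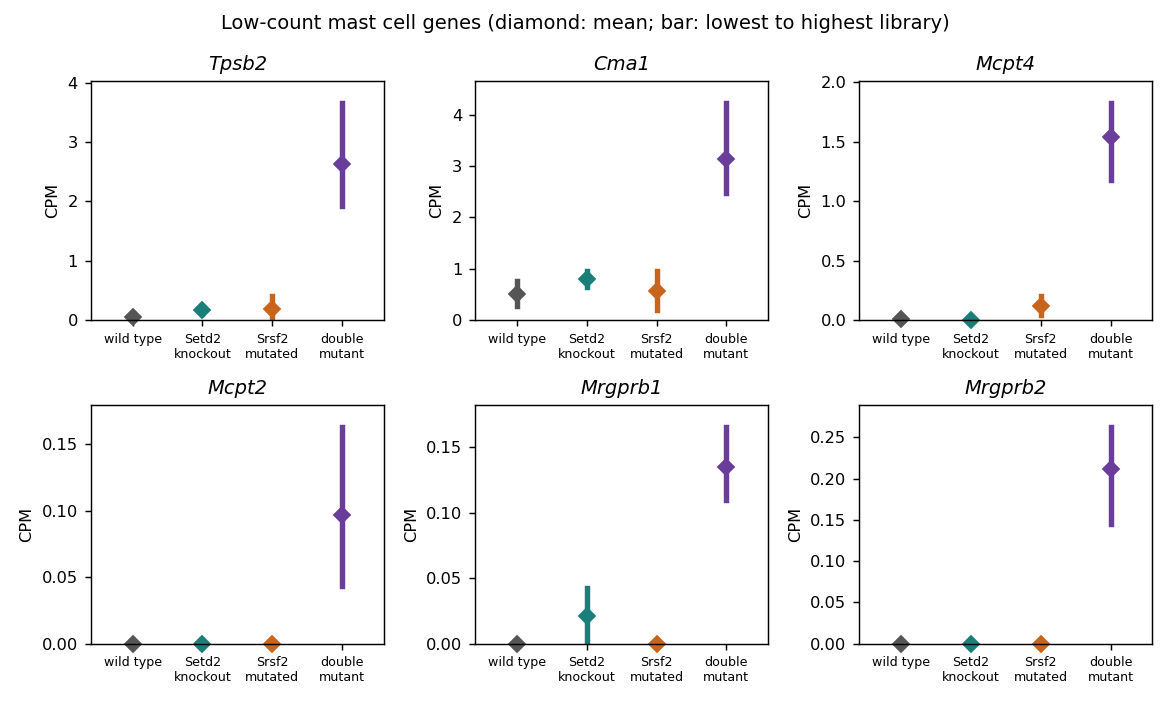
CPM of 6 low-count mast cell genes by genotype, with the mean as a diamond and a bar from the lowest to the highest library, each y axis from 0. In each panel the lowest double mutant library is above the highest library of the other 3 groups, for Tpsb2 at 1.92 against 0.405 CPM.

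Partners of the 2 enzymes and of ST2 were counted next. Of 14 tested genes for histamine, serotonin and lipid mediators, 4 rose and 4 fell in the Setd2 knockout against wild type, beside 18.7% and 19.9% of all tested genes. In double mutant against Srsf2 mutated 6 rose and 2 fell, beside 17.8% and 15.9% (1 fell without double mutant replicate 1). Summed over the list of 15 genes, the level was lowest in the Setd2 knockout (348.5 to 351.6 CPM) and highest in the double mutant (485.2 to 493.3), as for Hdc. Ptgs2, the inducible prostaglandin synthase, read 3.12 and 3.91 CPM on average in the groups with normal Srsf2 and 53 and 50.8 in those with the mutation. Alox5, the 5-lipoxygenase of leukotriene synthesis, had the order of Hdc: 37.8 ± 0.102 CPM in the Setd2 knockout, 90.7 ± 11.6 in wild type, 122 ± 2.98 in Srsf2 mutated and 165 ± 1.81 in the double mutant (SD, n = 2, 2, 3 and 3). Slc18a2, the vesicular transporter that loads histamine into granules, had another: it was highest in the Setd2 knockout at 51.5 CPM, where Hdc was lowest. Of 6 tested steroid synthesis genes, 0 rose and 4 fell in Srsf2 mutated against wild type, beside 28.5% and 27.8% of all, where Cyp11a1 rose 16.02-fold. Fdxr, the reductase that feeds electrons to it, fell by 0.55 ± 0.11 (SE; edgeR adjusted p = 0.00047). By DESeq2 0 of the 6 rose, 0 did at an unadjusted p under 0.05, and 1 did without Srsf2 mutated replicate 2. Of 12 genes of IL-33 signaling, 0 rose and 5 fell in the Setd2 knockout against wild type, beside 18.7% and 19.9% of all, where Il1rl1 rose. In double mutant against Srsf2 mutated 3 rose and 3 fell, beside 17.8% and 15.9%. The count of 0 was the same by DESeq2 and at an unadjusted p under 0.05, and was 1 under upper-quartile scaling, the stricter filter or without wild type replicate 1. The ligand Il33 was at 0.471 CPM or less on average in each group.

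Markers of other cells moved with several of these genes. Summed over 8 B lymphoid markers, the level was 106 to 123 CPM in wild type, 87.7 to 88.4 in the Setd2 knockout, 1021.9 to 1079.1 in Srsf2 mutated and 273.5 to 289.7 in the double mutant, with 0 of the 8 at 0 in any library. That is the order of Prss34, Mcpt8 and Cyp11a1. All 8 rose in Srsf2 mutated against wild type (28.5% of all tested genes) and fell in the double mutant against Srsf2 mutated (15.9%). Summed over 9 eosinophil markers, the level was 884 to 1045 CPM in wild type, 180.2 to 191.4 in the Setd2 knockout, 1355.5 to 1641 in Srsf2 mutated and 1912 to 1959 in the double mutant, the order of Hdc. Late neutrophil markers were also lowest in the Setd2 knockout (5819.2 to 6365.1 CPM) and highest in the double mutant (31648.7 to 32334.6), with 16347.8 to 22826.8 in wild type and 13815 to 17244.4 in Srsf2 mutated. All 8 of them fell in the Setd2 knockout against wild type (median -1.62), beside 19.9% of all tested genes. All 8 rose in the double mutant against Srsf2 mutated (median 1.17), beside 17.8% of all. Erythroid markers summed to 616 to 668, 2060.4 to 2064.7, 1404.9 to 1515.1 and 6505.2 to 6674.6 CPM for wild type, knockout of Setd2, mutation of Srsf2 and both, and early neutrophil markers to 28864 to 29139, 16108 to 17336, 11150.2 to 12870.3 and 8637.4 to 8827.5. Megakaryocyte markers (10 genes) summed to 237 to 238, 182 to 187, 173 to 184 and 94.6 to 104 CPM. Innate lymphoid type 2 markers, of cells that also use ST2, summed to 12.44 to 12.47, 13.09 to 13.2, 41.88 to 44.04 and 31.2 to 36.17 CPM in that order of groups. Of these 8, 6 rose in Srsf2 mutated against wild type (median 2.61, beside 28.5% of all tested genes), where Il1rl1 fell. In the wild type libraries 1 and 2 of the 8 stood at 0, so this count and median may be partly set by the filter. T and NK markers summed to 381 to 414, 197 to 215, 143.5 to 182.3 and 130 to 134.5 CPM. Yet 6 of 8 rose and 1 fell in Srsf2 mutated against wild type (median 2.65), beside 28.5% and 27.8% of all. The sum and most calls thus went opposite ways. Of the T and NK genes 1 and 2 also stood at 0 in the wild type libraries, so their calls have the same limit. The part of these cells in the changes above was not tested.

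**Figure D5:**
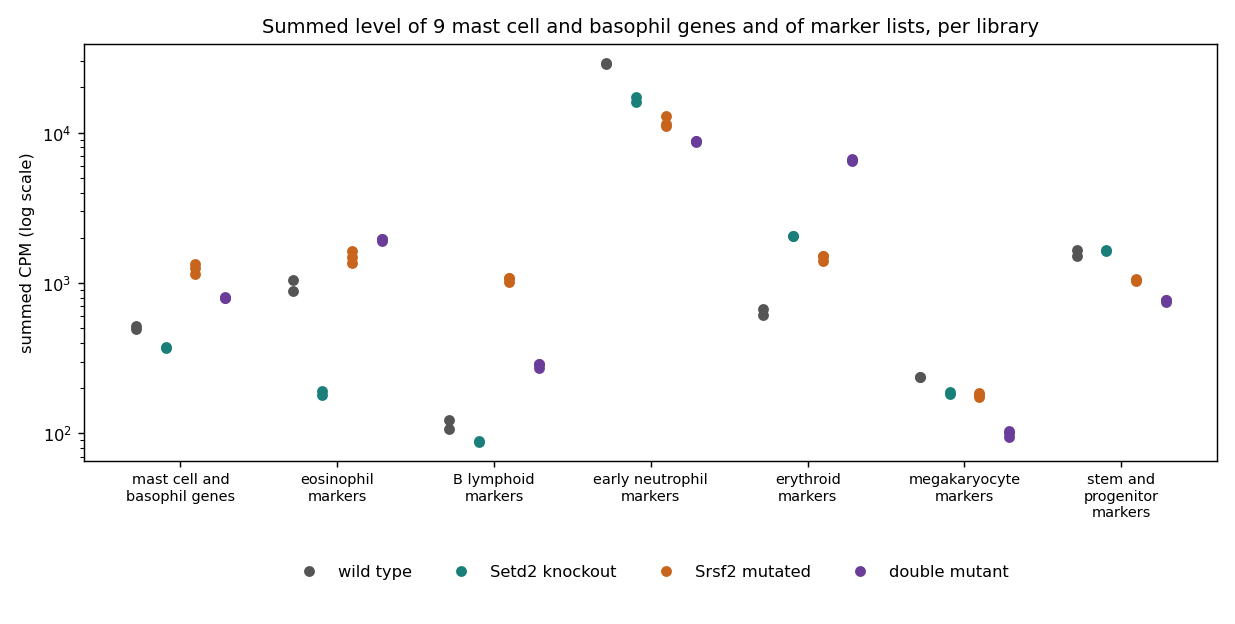
Summed CPM per library (points, log axis) of the 9 mast cell and basophil genes and of 6 marker lists, colored by genotype. The 9 genes and the B lymphoid markers are highest in Srsf2 mutated (1151.4 to 1347.8 and 1021.9 to 1079.1 CPM), whereas eosinophil and erythroid markers are highest in the double mutant.

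Across the 10 libraries, log2 CPM of Mcpt8 and Prss34 had a Pearson r of 0.984, Prss34 and Cyp11a1 0.964, and Prss34 and Fcer1a 0.946. Cpa3 ran beside Ms4a2 (0.741) more than beside Prss34 (0.299), and Il1rl1 had negative values with Prss34 (-0.751) and Mcpt8 (-0.744). The libraries fall into 4 genotypes, so these values describe the order of the groups. Outside the list, by Pearson r among genes with a highest group mean of at least 4 CPM, the genes most like Mcpt8 were Igll1 (r = 0.994) and Lef1 (0.9939), those most like Prss34 were Igll1 (0.995) and Blnk (0.994), and those most like Cyp11a1 were Pou2af1 (0.999) and Sytl3 (0.997). Igll1 is a part of the pre-B cell receptor, Blnk a B cell adaptor and Pou2af1 a B cell coactivator. Fcer1a was most like Hes1 (0.9902) and H2-Q4 (0.987), Ms4a2 like Ncl (0.979) and Elovl6 (0.978), and Cpa3 like Tipin (0.9645) and St13 (0.9604). Il1rl1 was most like Clca3a1 (0.9905) and Ces2g (0.9903), Hdc like Spata2 (0.992) and Plp2 (0.992), and Tpsb2 like Kmt5a (0.95) and Glrx5 (0.942). With 0 to 16 counts of Tpsb2 per library outside the double mutant, its likeness rests mainly on that group. The mean z score of the 9 genes, Tpsb2 included, was most like Apold1 (0.981). By Spearman's rho the order differed, with Lef1 at rank 213 for Mcpt8, Sytl3 at 155 for Cyp11a1, and Spata2 and Plp2 at 227 and 371 for Hdc.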

How the data were processed

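Bulk RNA-seq of 10 libraries in 4 genotypes was read from 3 deposited tables. Per the file headers these list read counts, whole numbers for each gene in each library, which were the values used, beside FPKM, which the authors scaled by listed length and column total. The authors' log2 fold changes, p-values and mean normalised counts (a score of abundance) stand in the same deposited tables. Per the submitters' processing notes the tools included HISAT2 2.0.5, HTSeq 0.9.1, featureCounts 2.0.1 and DESeq2 1.22.2, with no role or order. The 5 libraries in 2 tables were identical in both.

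After filterByExpr (minimum count 10) 19289 genes were tested with edgeR 4.0.16 (R 4.3.3): TMM scaling, 1 quasi-likelihood fit over the 10 libraries, 5 contrasts and Benjamini-Hochberg adjustment, called at an adjusted p under 0.05. The SE is the log2 change over the root of F. The script was tested on simulated data. A floor of 3 counts per group covers counting error only. Alternatives were RLE and upper-quartile scaling, 2 filters, DESeq2 1.42.0, a replicate block, only the groups compared and each library left out. Positions are from GENCODE M21.

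Named were the 9 genes, 9 fixed genes (among them Kit, Gata1, Gata2, Mitf, Cebpa, Fcer1g and Il33), up to 3 called genes of smallest adjusted p per list and comparison, and the 2 genes most like each member. Members and lists were chosen with earlier results of these data known.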

Additional observations from a re-analysis of the deposited data

Results flagged for a closer look

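For 7 of the 9 genes the effect of Setd2 loss differed between the Srsf2 backgrounds by the interaction test (edgeR, adjusted over all tested genes; 6160 genes passed it). The log2 differences, mutated minus normal Srsf2, were -1.755 for Ms4a2, -1.367 for Fcer1a, -1.325 for Mcpt8, -1.224 for Prss34, -0.9155 for Cyp11a1, -0.6843 for Cpa3 and 1.861 for Hdc. Hdc, Ms4a2 and Fcer1a changed sign between the backgrounds with a call in each. Hdc went by -1.37 and 0.49, Ms4a2 by 0.50 and -1.25, and Fcer1a by 0.51 and -0.86. Groups of 2 or 3 libraries were too small to look for a single library standing apart.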

How the results depend on the processing

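Of 45 effects (9 genes in 5 contrasts), 39 kept their side of the threshold under each alternative that gave a value. Under some alternatives 3 lost and 3 gained a call. With a call in either fit 0 reversed, while changes of sign between fits without a call were not counted. In Setd2 knockout against wild type, leaving out each library in turn gave 4792 to 8803 genes called in place of 7449 and 3 to 6 of the 9 genes. For Srsf2 mutated against wild type these ranges were 8718 to 11498 genes and 6 to 8 of the 9. The lone library left in a group of 2 is then assumed to vary like the other groups. Prss34 in Setd2 knockout lost its call under 10 of 17 alternatives, among them the stricter filter (adjusted p = 0.0868) and the fit of wild type and Setd2 knockout alone (0.0759). Upper-quartile scaling moved the median of all genes in the interaction from -0.07 to -0.21. With a replicate block, 7513, 10501, 6642, 9756 and 6188 genes were called in the 5 contrasts, and 6, 6, 9, 9 and 7 of the 9 genes. Of 13 same-numbered pairs of libraries, 0 had correlated deviations over 0.1 (-0.025 to 0.038), so the block rests on a shared number only. With only the groups compared, Tpsb2 passed the filter in 2 comparisons, and the interaction could not be fitted. Depth limits Tpsb2, at 0 to 16 counts per library outside the double mutant, and the filter passed it through that group.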

Other observations

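Neighbors of these genes in the genome were looked at within 200 kb on each side, and those named here were chosen after their values were seen. Mcpt8 lies in the granule protease cluster of chromosome 14, where only some of its neighbors moved with it. Of 9 tested neighbors, 5 rose and 1 fell in Srsf2 mutated against wild type (28.5% and 27.8% of all tested genes). Against Setd2 knockout, where Mcpt8 was also higher, the double mutant had 7 higher and 1 lower (26% and 25.8%). Against Srsf2 mutated, where Mcpt8 fell, it had 3 higher and 2 lower (17.8% and 15.9%). These counts include Mcpt4, which the filter passed through the double mutant. In Srsf2 mutated against wild type Mcpt8 rose by 2.08, Gzmb (granzyme B) rose by 2.91 (edgeR adjusted p = 1.34e-10) and Ctsg (cathepsin G of neutrophil precursors) fell by 0.86 (adjusted p = 2.94e-07) on the log2 scale. In double mutant against Srsf2 mutated Mcpt8 and Ctsg fell, the chymase Cma1 rose, and Gzmb read -0.25 (adjusted p = 0.0899). Counts of the chymase Mcpt4 were also higher in the double mutant, without a test for the reason given above.

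Prss34 and Tpsb2 share the tryptase cluster of chromosome 17 and moved in opposite directions in double mutant against Srsf2 mutated. Prss28, which lies between them, had 1.82 CPM in Srsf2 mutated and at most 0.233 on average in the other groups. No test is given for it, because it was close to the limit of detection outside the group where it is high. Cacna1h, a calcium channel gene next to Tpsb2, read 0.459, 1.635, 7.47 and 13.96 CPM in wild type, Setd2 knockout, Srsf2 mutated and double mutant. Of 5 tested neighbors of Il1rl1, 4 fell and 0 rose in Setd2 knockout, beside 19.9% and 18.7% of all tested genes, while Il1rl1 rose. Among the 4, Il18r1, a receptor gene of the same cluster, fell by 0.50 (adjusted p = 0.0272).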
